A study of Bos taurus with 12 samples.

Results

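The genes described here are 8 that are widely used to follow brown and thermogenic fat: PRDM16 and EBF2, the coactivators PPARGC1A and PPARGC1B, the mitochondrial carriers UCP2 and UCP3, the deiodinase DIO2 and the lipid droplet protein CIDEA. They were taken by gene name from the mRNA matrix, each matched 1 entry, and they make up 8 of its 33714 entries. RNA was sequenced from bovine intramuscular cells undergoing adipogenic differentiation, with 3 libraries on each of days 0, 3, 6 and 9, or 12 in all. Cells of every day had been grown in DMEM-F12 with 15% FBS and penicillin/streptomycin. The 0 d group was not induced. The other 3 groups were induced at 90% confluence with 0.5 mM IBMX, an inhibitor of cyclic nucleotide breakdown, 5 μg/ml insulin and the synthetic glucocorticoid dexamethasone at 1 g/mL, all doses as labelled, where the methods of the study give others for insulin and dexamethasone. After 48 hours these cells were moved to medium with insulin alone, so that 3 d, 6 d and 9 d all fell after the removal of IBMX and dexamethasone. Levels are in FPKM, read fragments scaled by transcript length and by the mapped total, which summed to between 1221194 and 1371794 per library. The reads behind a single FPKM value are unknown. The study calls the cells 1 batch and the 3 libraries of a day biological replicates, and neither it nor the labels say whether these came from separate animals or cultures, so p-values measure the spread between these libraries, which may in part be technical.

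Brown fat cells burn fuel to make heat. Their mitochondria carry UCP1, which lets protons back across the inner membrane without making ATP, and beige cells are fat cells within white depots that can take up the same program. EBF2 and PRDM16 set the identity of brown fat cells, PRDM16 acting at the branch between brown fat and skeletal muscle precursors, while the PGC-1 coactivators raise the number and activity of mitochondria. Adrenergic signals acting through cyclic AMP, and thyroid hormone activated inside the cell by DIO2, switch this program on. Fat within muscle is generally described as white.

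Small RNAs with a known tie to these genes were read from the same cells. The gene of miR-378 lies inside PPARGC1B, and miR-27 and miR-133 are known repressors of PRDM16, so the mature sequences of these miRNAs are shown, each with its seed, bases 2 to 8, in capitals. They were chosen after the values had been seen, and are described with no test. A suffix R+1 is part of the name in the deposited table, and chi marks a goat name. bta-miR-378 and chi-miR-378-5p were assigned to opposite arms at the same position and have different seeds. The seed of bta-miR-378 was shared by 9 names of the miRNA table.
bta-miR-378: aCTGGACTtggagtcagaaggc
chi-miR-378-5p: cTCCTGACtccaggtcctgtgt
The miR-27 pair shared 1 seed and differed near the 3′ end.
bta-miR-27a-3p_R+1: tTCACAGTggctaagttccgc
bta-miR-27b: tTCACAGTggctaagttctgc
The miR-133 pair also shared 1 seed, and differed near the 3′ end.
bta-miR-133a_R+1: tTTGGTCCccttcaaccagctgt
bta-miR-133b_R+1: tTTGGTCCccttcaaccagctat

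A gene was taken as expressed on a day when all 3 libraries reached an FPKM of 0.1. By that rule 6 of the 8 genes (CIDEA, PPARGC1A, PPARGC1B, PRDM16, EBF2 and UCP2) were expressed on all 4 days. DIO2 was expressed at 3 d only, and UCP3 on no day. The same 6 genes had a mean of at least 0.1 FPKM over the 12 libraries and were tested among 15402 mRNAs. Differences between days are log2 fold changes of FPKM + 0.1, fitted with limma over all 12 libraries, and folds are given on that scale, which understates the change of low genes. A gene is called higher or lower where the log2 fold change passed 1 in size with a Benjamini-Hochberg adjusted p under 0.05. The comparisons with 0 d share the 0 d libraries.

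**Figure D1:**
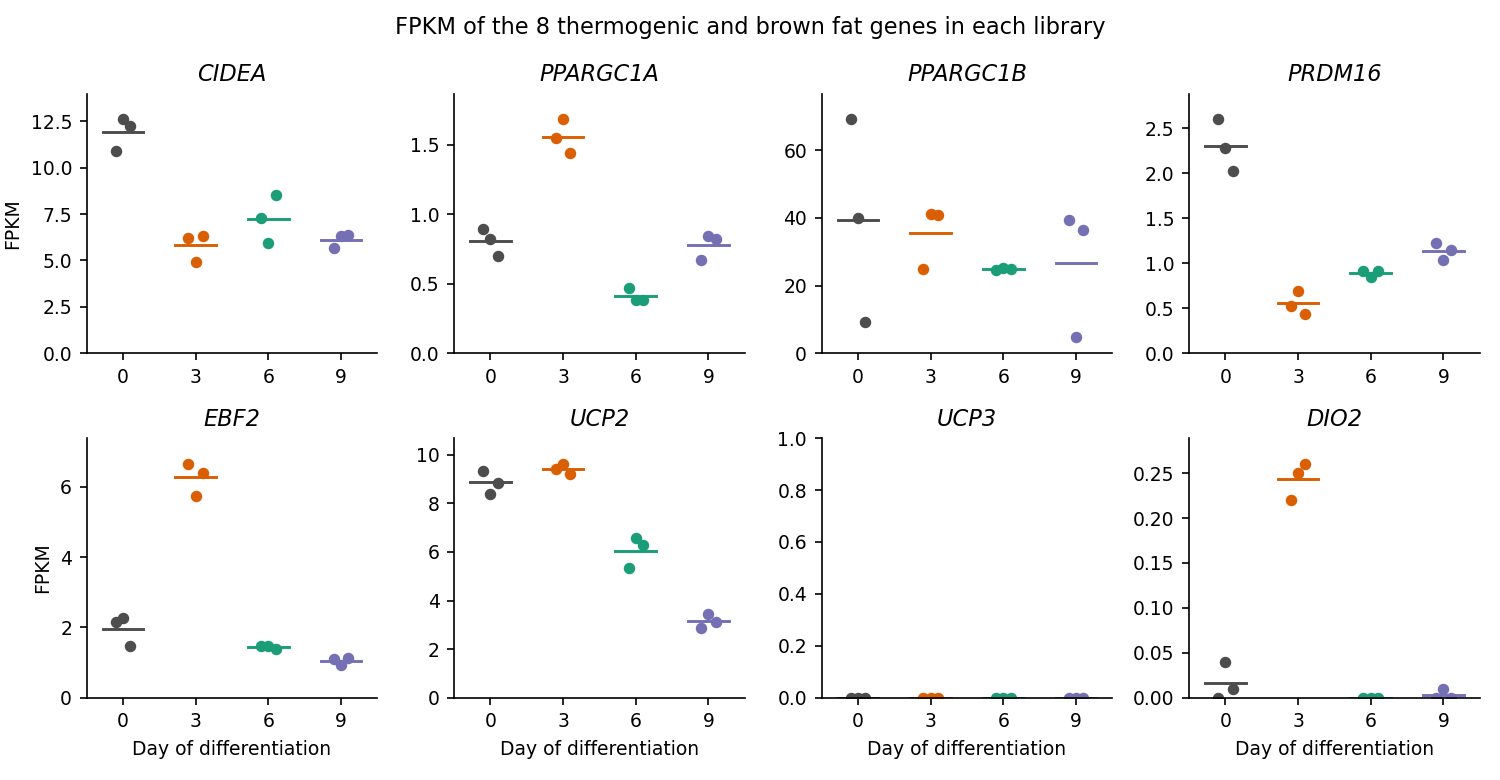
Level of each of the 8 genes in FPKM (vertical axis, its own scale for each gene, from 0) against the day of differentiation; each point is 1 library and each line the mean of the 3 libraries of a day. EBF2, PPARGC1A and DIO2 stood highest at 3 d, PRDM16 and CIDEA highest at 0 d, UCP2 lowest at 9 d, and UCP3 at 0 in every library.

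PRDM16 is a zinc finger co-regulator that drives brown fat genes and holds back muscle genes. Its level was 2.60, 2.28 and 2.03 FPKM in the 0 d libraries, 0.53, 0.69 and 0.44 at 3 d, 0.92, 0.85 and 0.92 at 6 d, then 1.23, 1.04 and 1.15 at 9 d. The 0 d libraries were the highest and the 3 d libraries the lowest, and no 2 days overlapped. Mean levels were 2.30 ± 0.286 FPKM at 0 d (SD, n = 3 for every day here), 0.553 ± 0.127 at 3 d, 0.897 ± 0.0404 at 6 d and 1.14 ± 0.0954 at 9 d, in the order 0 d, 9 d, 6 d, 3 d. PRDM16 fell 3.71-fold at 3 d against 0 d, a log2 fold change of −1.89 (SE 0.15; limma, Benjamini-Hochberg adjusted p = 2.29e-06). With a pseudocount of 1 the log2 fold change at 3 d was −1.09, still called. At 6 d PRDM16 was 2.40-fold below 0 d (log2 −1.26; limma, Benjamini-Hochberg adjusted p = 9.67e-05), a call that ended with that pseudocount (log2 −0.80). The difference at 9 d, −0.95 on the log2 scale, did not pass the threshold of 1, but reached −1.03 without the third library of 0 d, and it passed 1 by less (−1.0 each) without the first library of 9 d and with a pseudocount of 0.01. From 3 d to 6 d the log2 difference was 0.63, and from 6 d to 9 d 0.31, neither of which was called. The level at 3 d was above that of 20.6% of the tested mRNAs, against 37.1% at 0 d.

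EBF2 is a helix-loop-helix transcription factor that marks brown and beige fat precursors and opens brown fat genes for PPARG. Its level was 2.14, 2.28 and 1.47 FPKM at 0 d, 6.64, 5.74 and 6.40 at 3 d, 1.46, 1.48 and 1.39 at 6 d, then 1.10, 0.93 and 1.13 at 9 d. The 3 libraries of 3 d stood far above the other 9, and the third library of 0 d lay within the range of 6 d. Means were 1.96 ± 0.433, 6.26 ± 0.466, 1.44 ± 0.0473 and 1.05 ± 0.108 FPKM at 0, 3, 6 and 9 d, in the order 3 d, 0 d, 6 d, 9 d, with overlap between 0 d and 6 d. EBF2 rose 3.13-fold at 3 d against 0 d (log2 1.64, SE 0.15; limma, Benjamini-Hochberg adjusted p = 7.93e-06). It then fell 4.11-fold from 3 d to 6 d (log2 −2.04; limma, Benjamini-Hochberg adjusted p = 2.17e-06). At 6 d and 9 d the log2 differences from 0 d were −0.40 and −0.82, below the threshold, the second reaching −1.01 without the third library of 0 d. From 6 d to 9 d the log2 difference was −0.42. By level, EBF2 passed 54.0% of the tested mRNAs at 3 d and 29.0% at 9 d.

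PPARGC1A encodes PGC-1alpha, the coactivator that cold and exercise induce and that raises mitochondrial genes. Its level was 0.89, 0.82 and 0.70 FPKM at 0 d, 1.55, 1.68 and 1.44 at 3 d, 0.47, 0.38 and 0.38 at 6 d, then 0.67, 0.84 and 0.82 at 9 d. The 3 d libraries were the highest and the 6 d libraries the lowest, and 0 d and 9 d overlapped. Means were 0.803 ± 0.0961, 1.56 ± 0.120, 0.410 ± 0.052 and 0.777 ± 0.0929 FPKM, in the order 3 d, 0 d, 9 d, 6 d. The difference of 3 d from 0 d was 0.88 on the log2 scale (SE 0.13), below the threshold of 1 with a limma, Benjamini-Hochberg adjusted p of 0.000234. PPARGC1A fell 3.25-fold from 3 d to 6 d (log2 −1.70; limma, Benjamini-Hochberg adjusted p = 2.52e-06). That call ended with a pseudocount of 1 (log2 −0.86). The log2 difference was −0.82 at 6 d against 0 d, 0.78 at 9 d against 6 d and −0.04 at 9 d against 0 d, none of them called. The last of these turned to 0.14 when libraries were rescaled by their median ratio, to 0.03 without the first library of 0 d and to 0.05 without the first library of 9 d.

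PPARGC1B encodes PGC-1beta, a relative that also drives mitochondrial genes but responds less to cold. Its level was 69.1, 40.0 and 9.36 FPKM at 0 d, 24.8, 41.2 and 40.9 at 3 d, 24.7, 25.3 and 25.0 at 6 d, then 39.4, 4.68 and 36.4 at 9 d. Within 0 d, 3 d and 9 d the libraries spanned more than the 4 day means did, with the first library of 0 d the highest, the second of 9 d the lowest, and every day overlapping every other. Means were 39.5 ± 29.9, 35.6 ± 9.38, 25.0 ± 0.282 and 26.8 ± 19.2 FPKM, so that no 2 neighbours in the order 0 d, 3 d, 9 d, 6 d differed beyond their spread. The SD within days on the log2 scale, 1.16, was larger than that of 97.4% of the tested mRNAs, whose median was 0.21. In the other 5 tested genes it lay between 0.11 (UCP2) and 0.19 (EBF2). Whether the spread of PPARGC1B lay in the cells or in the estimate of its FPKM was not tested. No comparison of PPARGC1B was called, and on the log2 scale 3 d lay above 0 d and 9 d below 6 d, the reverse of the means. Its log2 difference from 0 d was 0.23 at 3 d (SE 0.86) but −0.60 without the third library of 0 d. At 6 d it was −0.24, and 0.37 without the first library of 0 d. At 9 d it was −0.64 against 0 d and −0.40 against 6 d, and without the second library of 9 d these turned to 0.35 and 0.60. From 3 d to 6 d it was −0.47. By day mean PPARGC1B was the highest of the 8 genes on every day, although CIDEA stood above it in the third library of 0 d and the second of 9 d, and its mean at 0 d passed 80.4% of the tested mRNAs.

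UCP2 encodes a carrier of the mitochondrial inner membrane, related to UCP1 and present in many tissues, that moves metabolites rather than making heat as its main task. Its level was 9.33, 8.38 and 8.85 FPKM at 0 d, 9.40, 9.61 and 9.22 at 3 d, 5.32, 6.55 and 6.29 at 6 d, then 2.88, 3.44 and 3.10 at 9 d. The 9 d libraries were the lowest and the 6 d libraries next, while 0 d and 3 d overlapped. Means were 8.85 ± 0.475, 9.41 ± 0.195, 6.05 ± 0.648 and 3.14 ± 0.282 FPKM, in the order 3 d, 0 d, 6 d, 9 d. UCP2 fell 2.77-fold at 9 d against 0 d (log2 −1.47, SE 0.10; limma, Benjamini-Hochberg adjusted p = 2.10e-06), and by 1.27 on the log2 scale after rescaling. The steps in between were smaller. The log2 difference was 0.09 at 3 d against 0 d, −0.55 at 6 d against 0 d, −0.63 at 6 d against 3 d and −0.92 at 9 d against 6 d, and only the last crossed the threshold in any setting, at −1.01 without the first library of 6 d.

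UCP3, the relative found mainly in skeletal muscle and brown fat, was listed at 0 in all 12 libraries. Of the 33714 entries, 23420 were above 0 in at least 1 library. A list of 14 housekeeping genes read in the same table held none at 0 in any library. None of these was below 2.77 FPKM, so they cannot show how genes of low level were read. UCP2 and UCP3 are near neighbours on chromosome 15 in the RefSeq gene table (ARS-UCD2.0), with 1 unnamed locus between them. DIO2, which turns the prohormone thyroxine into active thyroid hormone, stood at 0, 0.04 and 0.01 FPKM at 0 d, 0.22, 0.25 and 0.26 at 3 d, 0 in each library of 6 d, and 0, 0.01 and 0 at 9 d. All 3 libraries of 3 d lay above all 9 others. Its mean was 0.243 ± 0.0208 FPKM at 3 d and 0.0167 ± 0.0208 at 0 d, and its mean over the series was too low to enter the test. With no filter on low values DIO2 was called higher at 3 d against 0 d (log2 1.57; limma, Benjamini-Hochberg adjusted p = 1.93e-06) and lower at 6 d against 3 d. With levels at or near 0 on the other days, this fold and its p depend on the pseudocount of 0.1 and are a description only. At 0 d and 9 d, which overlapped, it did not meet the rule for expression.

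CIDEA encodes a lipid droplet protein that lets droplets pass lipid to each other and that is abundant in brown fat cells of mice. Its level was 10.9, 12.6 and 12.3 FPKM at 0 d, 6.23, 4.90 and 6.31 at 3 d, 7.30, 5.95 and 8.53 at 6 d, then 5.65, 6.31 and 6.36 at 9 d. The 0 d libraries lay above all 9 later ones, and the 3 later days overlapped one another. Means were 11.9 ± 0.901, 5.81 ± 0.792, 7.26 ± 1.29 and 6.11 ± 0.396 FPKM, in the order 0 d, 6 d, 9 d, 3 d, where 6 d and 9 d, and 9 d and 3 d, did not differ beyond their spread. CIDEA fell 2.04-fold at 3 d against 0 d (log2 −1.03, SE 0.14; limma, Benjamini-Hochberg adjusted p = 0.000151). This call lay at the threshold, and ended with a pseudocount of 1 (log2 −0.93), after rescaling (−0.94), without the second library of 0 d (−0.99) and without the second library of 3 d (−0.91). The log2 difference from 0 d was −0.72 at 6 d and −0.95 at 9 d, the latter reaching −1.02 without the first library of 0 d. From 3 d to 6 d it was 0.31, and from 6 d to 9 d −0.23.

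Of the 6 tested genes, 3 were called at 3 d against 0 d, beside 23.3% of all tested mRNAs. EBF2 was higher, beside 8.06% of all tested mRNAs called higher, and PRDM16 and CIDEA were lower, beside 15.2% called lower. The median log2 fold change of the 6 genes was 0.16, and that of all tested mRNAs −0.06. At 6 d against 0 d, 1 of 6 was called, PRDM16 (beside 11.4% of all tested mRNAs), as lower (beside 7.97%), and 0 as higher (beside 3.39%), with a median of −0.63 against −0.15. At 9 d against 0 d, 1 of 6 was called, UCP2 (beside 10.9%), as lower (beside 7.47%), and 0 as higher (beside 3.41%), with a median of −0.89 against −0.19. By limma, 5 of the 6 genes had an unadjusted p under 0.05 at 6 d, beside 43.1% of all tested mRNAs, and 4 at 9 d, beside 45.3%.

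Between successive days, 2 of 6 were called from 3 d to 6 d (beside 19.1%), EBF2 and PPARGC1A, both lower (beside 9.23%), and 0 higher (beside 9.85%). The median was −0.55 against −0.09 over all tested mRNAs, and 4 of the 6 genes had an unadjusted p under 0.05 by limma, beside 55.4% of all tested mRNAs. From 6 d to 9 d, 0 of 6 were called (beside 4.43%), 0 higher (beside 2.55%) and 0 lower (beside 1.89%). By limma, 3 of the 6 genes had an unadjusted p under 0.05 in that comparison, beside 32.0% of all tested mRNAs. PPARGC1A and UCP2 also had a limma, Benjamini-Hochberg adjusted p under 0.05, as did 20.7% of all tested mRNAs, with a change short of the threshold. With only 6 genes, the counts are a description only. Rescaling by the median ratio moved the median of all tested mRNAs by 0.15 at 6 d and 0.19 at 9 d against 0 d. The share of calls that were higher moved with it from 29.8% to 40.4% at 6 d, and from 31.3% to 46.4% at 9 d. After rescaling, PRDM16 at 6 d stood at −1.11 and UCP2 at 9 d at −1.27, both still called.

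**Figure D2:**
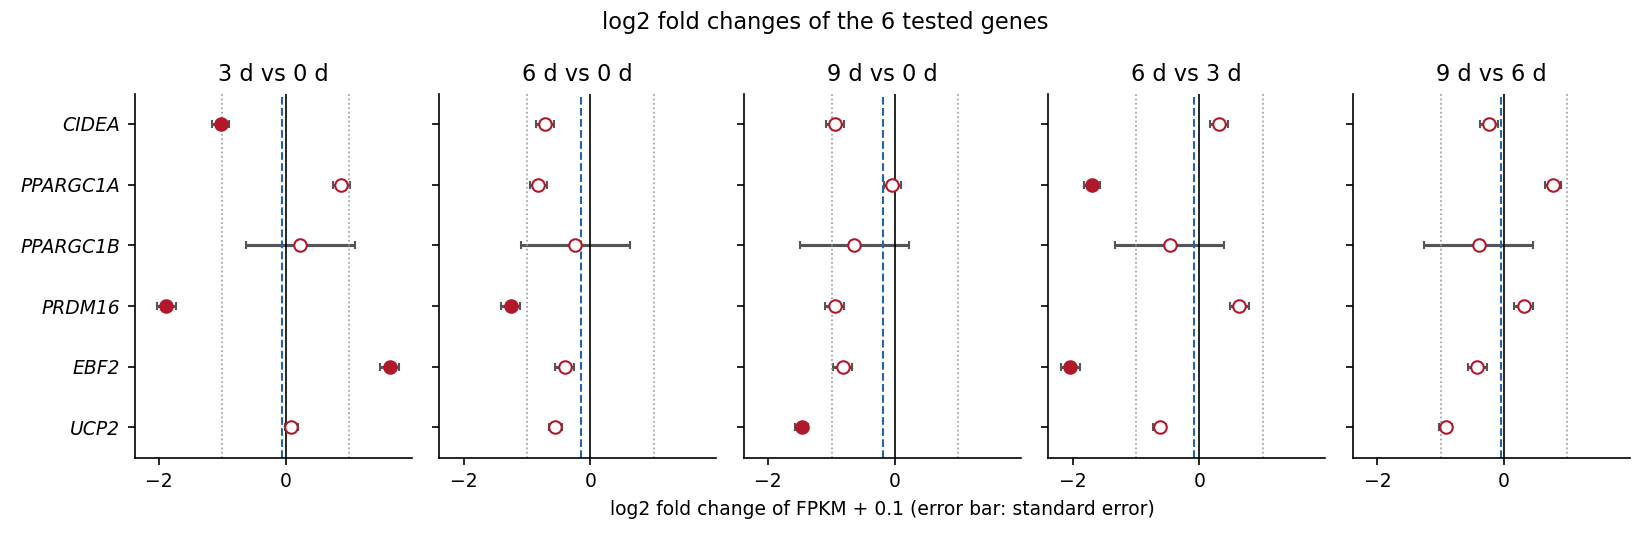
log2 fold change of FPKM + 0.1 (horizontal axis) of the 6 tested genes in each of 5 comparisons; points are limma estimates from 3 libraries a day, bars the standard error, filled points are called, dotted lines mark a log2 fold change of 1 in either direction and the dashed line the median of all 15402 tested mRNAs. EBF2 moved up by 1.64 at 3 d and down by 2.04 from 3 d to 6 d, PRDM16 was lowest at 3 d (−1.89), and the bars of PPARGC1B span 0 in every comparison.

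The 6 tested genes followed several courses. Over the 12 libraries, on the log2 scale, Pearson r was 0.79 between PPARGC1A and EBF2, which were both highest at 3 d, and 0.79 between CIDEA and PRDM16, which were both highest at 0 d. It was 0.74 between EBF2 and UCP2 and −0.52 between PRDM16 and EBF2. Libraries of 1 day are not independent points for such a value, so it is a description with n = 12. The mRNAs most like each gene were sought by the same measure among 10005 others (10006 for PPARGC1A) with a mean of at least 1 FPKM, entries with only a locus number or joined to one left out. PRDM16 was most like ANKIB1, MET and CKM, each with r = 0.985. CKM, the creatine kinase of muscle, had mean levels of 133, 3.28, 13.4 and 26.7 FPKM at 0, 3, 6 and 9 d. CIDEA was most like MOSPD1 (r = 0.973), ANKRD1 (0.954), a muscle ankyrin repeat protein, and OCA2 (0.952). For EBF2 these were NEURL4 (0.987), NT5DC3 (0.984) and an entry that joins MAPK1IP1L and SOCS4 (0.982). PPARGC1A was most like GRO1 (0.989) and CXCL3 (0.981), both chemokines, and ST3GAL3 (0.974). GRO1 had means of 1.57, 9.79, 0.247 and 1.61 FPKM. UCP2 was most like ILF2 (0.980), ATP5F1B (0.977), a subunit of ATP synthase, and ALDOC (0.975). For PPARGC1B the values were lower, with CDK13 at 0.926, EMC8 at 0.881 and ASB3 at 0.854.

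The RefSeq gene table places MIR378-1 inside PPARGC1B on chromosome 7. In the miRNA table, the precursor bta-mir-378-1 lay on the + strand of chromosome 7, from 61076225 to 61076336 in the coordinates of that table, and chi-miR-378-5p was assigned to the same position. The sequence of bta-miR-378 was also assigned to a precursor on chromosome 4, bta-mir-378-2. Its normalised signal, the authors' scaled read number, was 19723, 21909 and 32306 at 0 d, 15028, 14462 and 18415 at 3 d, 10209, 9933 and 12856 at 6 d, then 9886, 9282 and 9150 at 9 d. The 0 d libraries stood highest with no overlap, and the 9 d libraries lay below all others. Mean signal was 24646 ± 6723 at 0 d and 9439 ± 392 at 9 d (SD, n = 3), and the mean over the series was above that of 96.6% of the 1458 entries. The other arm, chi-miR-378-5p, had a signal of 1191, 1268 and 1242 at 0 d, 930, 910 and 955 at 3 d, 686, 716 and 857 at 6 d, then 654, 658 and 506 at 9 d. It too was lower on each later day, with no overlap between days. PPARGC1B mRNA, whose days all overlapped, showed no such order, and the library with the lowest PPARGC1B level at 0 d, the third, had the highest bta-miR-378 signal of the series. That library also had the largest summed miRNA signal, 4064470, where the lowest was 3002758, and the part of that total in the value was not tested.

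**Figure D3:**
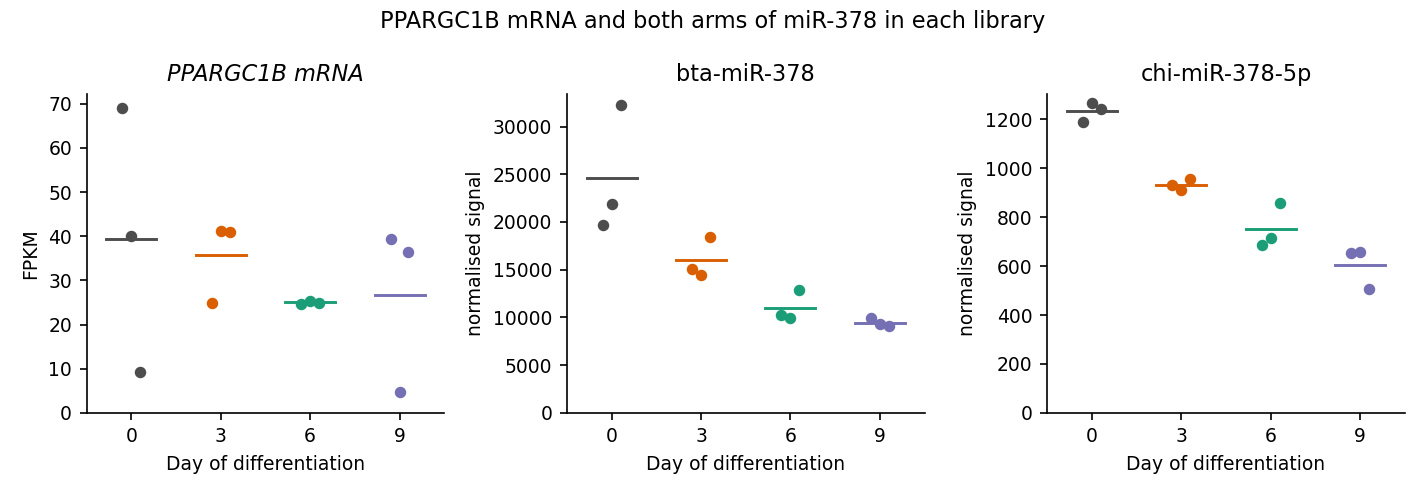
PPARGC1B mRNA in FPKM and normalised signal of bta-miR-378 and chi-miR-378-5p (vertical axes, from 0) against the day of differentiation; each point is 1 library and each line the mean of 3. Both arms are highest at 0 d and lowest at 9 d, while the mRNA ranges from 9.36 to 69.1 FPKM within 0 d.

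The miRNAs that are known to repress PRDM16 did not share 1 course. bta-miR-27b had mean signals of 29779 ± 2902, 26024 ± 821, 38275 ± 2846 and 48292 ± 3875 at 0, 3, 6 and 9 d (SD, n = 3), and bta-miR-27a-3p_R+1 of 4452 ± 647, 3506 ± 129, 5007 ± 1148 and 5369 ± 331. By mean both were lowest at 3 d, the day on which PRDM16 was lowest, and highest at 9 d. The summed miRNA signal was 3578468, 3997993 and 3653091 in the 9 d libraries, above that of every 3 d and 6 d library. The part of these totals in the means was not tested. The mean of bta-miR-133b_R+1 was 25874 ± 2990 at 0 d and 18500 ± 385 at 3 d, then 10524 ± 3161 at 6 d and 7815 ± 721 at 9 d. For bta-miR-133a_R+1 the means were 12130, 14346, 11717 and 9621 in the same order of days, highest at 3 d. These miRNAs are also known from muscle, and their course was not tested against the mRNA.

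In the wider set of brown fat markers, UCP1 itself was near 0, with no library above 0.05 FPKM. COX8B, a respiratory chain subunit of brown fat, did not pass 0.06 FPKM, and PLIN5 was listed at 0 in all 12 libraries. Of 16 markers, 11 were tested, of which 3 went up and 2 down at 3 d against 0 d, 1 up and 1 down at 6 d, and 1 down at 9 d. The median log2 fold change was −0.25, −0.21 and −0.56 on these days. Of all tested mRNAs, 8.06% were called higher and 15.2% lower at 3 d against 0 d. The shares were 3.39% and 7.97% at 6 d, and 3.41% and 7.47% at 9 d. Medians of all tested mRNAs were −0.06, −0.15 and −0.19. These shares and medians stand beside the counts of this and every later list, which are a description only. PDK4, the kinase that shuts glucose carbon out of mitochondria, stood at 0.82, 1.22 and 0.78 FPKM at 0 d and at 63.9, 61.0 and 63.8 at 3 d, before 2.25, 1.76 and 1.89 at 6 d and 0.66, 0.69 and 0.85 at 9 d. The 3 d libraries were far above all others, and PDK4 rose by 5.95 on the log2 scale at 3 d (limma, Benjamini-Hochberg adjusted p = 1.16e-09). S100B, a calcium-binding protein, also rose at 3 d (log2 1.32). ELOVL3, an elongase of very long fatty acids, rose from 0.21, 0.17 and 0.22 FPKM at 0 d to 0.61, 0.38 and 0.99 at 3 d (log2 1.26), and was listed at 0 in all 6 libraries of 6 d and 9 d. The entry that joins CPT1B, the muscle form of the enzyme admitting fatty acids to mitochondria, with CHKB fell at 3 d (log2 −1.16). COX7A1, another respiratory subunit, had log2 differences from 0 d of −0.25, −0.86 and −0.31 and was not called.

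Of 11 beige fat markers, 7 were tested. At 3 d against 0 d, 0 were called higher and 4 lower, with a median log2 fold change of −1.42. By limma 1 was lower on each of the other days, and the call at 9 d was lost after rescaling. Medians there were −0.35 and −0.51. TMEM26, a membrane protein used to sort beige cells, stood at 3.88, 4.12 and 4.22 FPKM at 0 d, 0.80, 0.70 and 0.75 at 3 d, 2.0, 0.78 and 2.21 at 6 d, then 3.37, 3.54 and 3.03 at 9 d. It was lowest at 3 d and overlapped between 3 d and 6 d. It fell by 2.30 at 3 d on the log2 scale and by 1.36 at 6 d. KLHL13 fell by 2.05 and SHOX2 by 1.52 at 3 d. Of 10 white fat markers, NNMT was not analysed here and 6 were tested. Calls were 1 up and 2 down at 3 d, and 2 up and 1 down on both later days, and after rescaling 1 down at 3 d and 0 down at 9 d. Medians were −0.82, −0.21 and −0.24. Leptin (LEP), the hormone of white fat, stood at 2.17, 2.39 and 2.47 FPKM at 0 d, 0, 0.21 and 0 at 3 d, 9.97, 8.60 and 5.50 at 6 d, then 25.3, 16.6 and 19.6 at 9 d. It was lowest at 3 d and highest at 9 d, with no overlap between days, and its log2 fold changes against 0 d were −4.06, 1.69 and 3.06, all called. WT1 fell by 1.44 at 6 d and by 1.05 at 9 d, the latter lost after rescaling (−0.87).

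PRDM16 and EBF2 work with many other factors. Of 24 partners, co-regulators and relatives, 22 were tested, of which 3 went up at 3 d, 2 down at 6 d and 3 down at 9 d, with no other calls on those days (4 up at 3 d and 2 down at 9 d after rescaling) and medians of 0.01, −0.32 and −0.32. The 3 that rose at 3 d were EBF1, NFIA and KLF15. EBF1, a relative of EBF2, had 48.8, 55.8 and 48.4 FPKM at 0 d, 258, 227 and 233 at 3 d, 68.1, 64.0 and 58.4 at 6 d, then 48.6, 43.1 and 43.3 at 9 d. As in EBF2, the 3 d libraries stood far above the other 9. EBF1 rose by 2.23 on the log2 scale at 3 d and fell by 1.91 from 3 d to 6 d. The relatives EBF3 (means of 13.2 FPKM at 0 d and 14.4 at 3 d) and EBF4 (2.35 and 1.58) were not called at 3 d. NFIA, which acts with PPARG at brown fat genes, rose by 1.47 at 3 d and lay 1.42 below 0 d at 6 d, and its fall of 1.17 at 9 d was lost after rescaling (−0.96). KLF15, a factor induced by glucocorticoids, rose by 1.14 at 3 d and fell by 1.82 at 9 d against 0 d. ZNF423, which holds back the brown program in white fat cells, fell by 2.24 at 6 d and by 1.98 at 9 d. CEBPA, a factor of fat cell differentiation, reached at most 0.26 FPKM and was not called.

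Partners of the PGC-1 proteins were read by the same rule. Of 17, 14 were tested and 1, a gene below 1 FPKM in every library, was called lower on each of the 3 later days against 0 d, beside 23.3%, 11.4% and 10.9% of all tested mRNAs called in either direction. Medians were 0.08, −0.18 and −0.25. TFAM, a factor that transcribes and maintains mitochondrial DNA, stood at 1.14, 0.78 and 0.95 FPKM at 0 d, 9.34, 1.47 and 2.34 at 3 d, 1.70, 4.70 and 5.35 at 6 d, then 4.83, 5.60 and 1.10 at 9 d. All libraries of 3 d and 6 d lay above those of 0 d, but the libraries of 1 day differed widely and it was not called. ESRRA, the nuclear receptor through which PGC-1alpha raises mitochondrial genes, had log2 differences of 0.36, −0.25 and −0.12 and was not called. All 12 known target genes were tested, of which 1 went up and 1 down at 3 d, 1 up at 6 d and by limma none at 9 d, with medians of −0.37, −0.14 and −0.22. ACADM, an enzyme of fatty acid oxidation, rose by 1.53 at 3 d and by 1.18 at 6 d, and the lower entry was CPT1B with CHKB. Of 7 other uncoupling proteins and ADP/ATP carriers, 6 were tested, and by limma 0 were called in any of the 5 comparisons, with medians between −0.32 and −0.04. SLC25A6, an ADP/ATP carrier, was the most abundant of them at a mean of 740 FPKM.

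For thyroid hormone action around DIO2, 13 of 16 genes were tested. Calls were 2 up and 1 down at 3 d and 1 in each direction on both later days, and after rescaling 3 up at 3 d and 2 up at 6 d. Medians were 0.26, −0.10 and −0.13. SLC16A10, a transporter of thyroid hormones, was 3.82-fold lower at 6 d and 3.52-fold lower at 9 d. USP33, an enzyme that removes ubiquitin from DIO2, fell by 1.2 at 3 d. The receptor THRB had log2 differences of 0.87, 0.96 and 0.39 and was not called, although the value at 6 d was 1.12 and called after rescaling. The other deiodinases, DIO1 and DIO3, were too low to be tested, although DIO3, which inactivates thyroid hormone, had 0.27, 0.24 and 0.22 FPKM at 9 d and at most 0.09 in any earlier library.

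Adrenergic signals reach these genes through cyclic AMP. Of 24 receptors and cyclic AMP pathway genes, 23 were tested. Calls were 5 up and 3 down at 3 d and 2 in each direction on both later days, and after rescaling 6 up and 2 down at 3 d, 3 up at 6 d, and 4 up and 1 down at 9 d. Medians were 0.37, −0.02 and 0.10. ADRB3, the receptor through which cold acts on brown fat of mice, reached no more than 0.10 FPKM and was the gene left out. PDE3B, the phosphodiesterase by which insulin lowers cyclic AMP, stood at 0.67, 0.96 and 0.81 FPKM at 0 d and 8.15, 7.77 and 7.46 at 3 d. It rose by 3.12 on the log2 scale and, from 3 d to 6 d, fell by 2.22. PDE4D rose at 3 d (log2 2.56, SE 0.65), where the first library had 119 FPKM and the others 717 and 725. NR4A3, an early response factor, was lowest at 6 d, where it fell by 1.42 against 0 d.

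CIDEA has 2 relatives in the CIDE family. CIDEC, which builds large droplets in white fat cells, stood at 0.09, 0.10 and 0.06 FPKM at 0 d, 0.07, 0.11 and 0.21 at 3 d, 0.37, 0.24 and 0.31 at 6 d, then 0.57, 0.26 and 0.39 at 9 d. It was far lower than CIDEA in every library, and the 6 d and 9 d libraries lay above all those of 0 d and 3 d. CIDEC rose by 1.14 at 6 d and by 1.43 at 9 d on the log2 scale, while CIDEA was called lower at 3 d. CIDEB was called in none of the comparisons with 0 d. Of 13 CIDE relatives and droplet proteins, 12 were tested, of which 5 went up and 2 down at 3 d, 2 up and 2 down at 6 d (3 up after rescaling), and 2 up and 1 down at 9 d, with medians of 0.59, 0.30 and 0.22. PLIN2, the droplet coat protein of many cell types, had 130, 125 and 135 FPKM at 0 d, 648, 680 and 676 at 3 d, 230, 249 and 256 at 6 d, then 216, 206 and 232 at 9 d. It was highest at 3 d with no overlap, and rose by 2.36. PLIN4 rose by 1.91, 2.36 and 2.36 on the 3 later days, G0S2, an inhibitor of lipolysis, rose by 3.96 at 3 d, and FITM1, a droplet protein of muscle, fell by 1.50, 1.52 and 2.18. The entry that joins PLIN1 with PEX11A was not called (log2 0.88, 0.42 and 0.38).

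Heat can also be made without UCP1, by cycling creatine or calcium. Of 13 such genes, 12 had an entry, CKMT1 was not analysed here, and 10 were tested. On each day 1 went up, while 2 went down at 3 d, 4 at 6 d, and 6 (5 after rescaling) at 9 d. Medians were −0.61, −0.41 and −1.22. ALPL, the phosphatase that splits phosphocreatine in fat cell mitochondria, was the 1 higher gene, at 0.68, 1.83 and 1.09 FPKM at 0 d, 11.5, 12.1 and 9.76 at 3 d, 11.4, 14.9 and 9.51 at 6 d, then 24.9, 26.1 and 24.5 at 9 d. All 9 later libraries lay above the 0 d libraries, and the log2 rise was 3.20, 3.29 and 4.38. At 9 d against 0 d the creatine genes CKB and GATM fell by 1.42 and 1.65 on the log2 scale. The calcium pump ATP2A2 fell by 1.02, a call lost after rescaling (−0.82). On that day the pump ATP2A1 fell by 2.27, the release channel RYR1 by 2.0 and sarcolipin (SLN), which uncouples the pump, by 2.84. ATP2A1, RYR1 and SLN are also muscle genes. Of 15 signals and receptors that act on brown and beige fat, 14 had an entry, NRG4 was not analysed here, and 9 were tested. Of these, 1 went up and 4 down (3 after rescaling) at 3 d, 1 up and 3 down at 6 d, and 3 up and 3 down (2 after rescaling) at 9 d, with medians of −0.45, −0.40 and 0.31. NPR3, the receptor that clears natriuretic peptides, fell from 490, 492 and 487 FPKM at 0 d to 24.4, 24.8 and 23.8 at 3 d (log2 −4.32). The signalling receptor NPR1 fell by 4.20 at 3 d and by 2.46 at 9 d. KLB, the co-receptor of FGF21, rose by 1.90 at 3 d, and FNDC5, the source of the muscle hormone irisin, fell by 1.3, 2.15 and 2.21. The 3 higher at 9 d were BMP4 (log2 1.87), VEGFA (1.28) and IL6 (1.14), and IL6 did not pass 0.33 FPKM in any library.

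**Figure D4:**
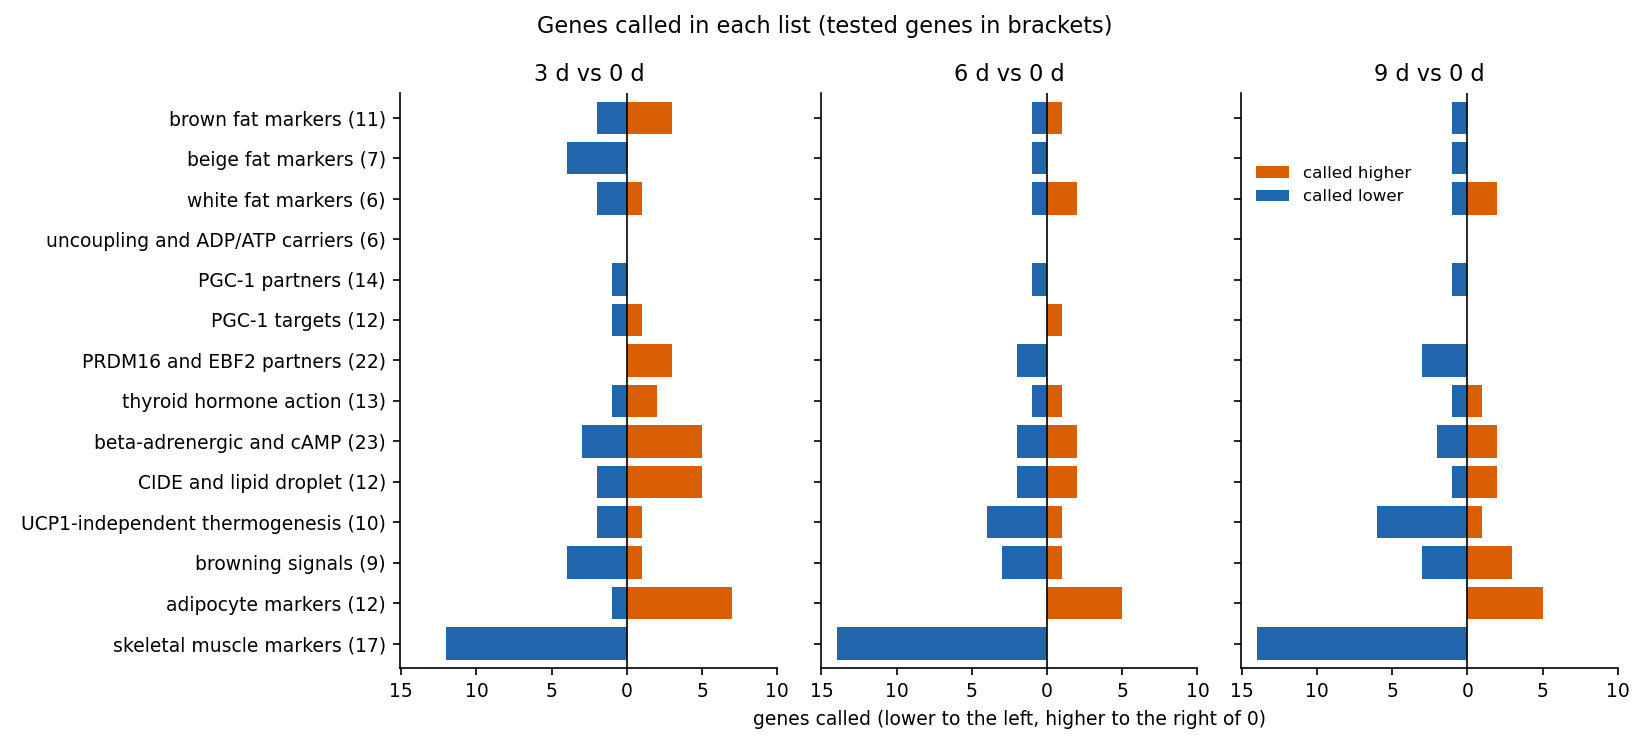
Number of genes called higher (right of 0, orange) and lower (left of 0, blue) in each list at 3 d, 6 d and 9 d against 0 d, by limma on 3 libraries a day; the number of tested genes stands in brackets. Calls run both ways in most lists, with 14 of 17 muscle markers lower at 6 d and 9 d (12 and 13 after rescaling), and 7 of 12 adipocyte markers higher at 3 d. Of all tested mRNAs, 23.3%, 11.4% and 10.9% were called in either direction at 3 d, 6 d and 9 d.

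The labelled identity of the cells was checked against marker lists. All 12 adipocyte markers were tested, of which 7 went up and 1 down at 3 d, and 5 up on both later days (6 at 6 d after rescaling). Medians were 1.14, 0.80 and 0.56. FABP4, the fatty acid carrier of fat cells, stood at 3.36, 3.02 and 3.52 FPKM at 0 d, 94.7, 86.2 and 92.3 at 3 d, 24.5, 26.4 and 28.4 at 6 d, then 7.59, 8.84 and 10.8 at 9 d. It was highest at 3 d and lower on each later day, and its log2 rise over 0 d was 4.75, 2.96 and 1.42. DGAT2, which closes triglyceride synthesis, rose by 7.12, 5.73 and 5.87, and GPAM, which opens it, rose by 2.82 at 3 d. Adiponectin (ADIPOQ) was called higher on the 3 later days (log2 2.68, 2.22 and 2.34), but no library passed 1.64 FPKM. The summed level of the 12 markers was 58.4, 65.6 and 65.4 FPKM at 0 d, 215, 220 and 224 at 3 d, 103, 114 and 118 at 6 d, then 106, 88.2 and 107 at 9 d, with the PLIN1 entry the most abundant over the 12 libraries and FABP4 the higher of the pair at 3 d. In 10 preadipocyte and fibroblast markers, 9 of them tested, 4 went up and 4 down at 3 d, 3 up and 2 down at 6 d, and 2 up and 1 down at 9 d, with medians of 0.26, 0.03 and 0.40. COL3A1, a collagen, was their most abundant at a mean of 124895 FPKM, and PDGFRA, the receptor that marks fat precursors, stood highest at 3 d at 925, 963 and 900 FPKM, a log2 rise of 2.54. DCN, LUM and THY1 also rose at 3 d (log2 2.09, 1.56 and 1.85). PDGFRB, COL1A1, COL1A2 and CD34 fell on that day (log2 −1.38, −1.68, −1.18 and −1.85).

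Skeletal muscle markers were present on every day, and most were lower on the later days, on which PRDM16 and CIDEA also stood below 0 d. Of 19 muscle genes, 18 had an entry, PAX7 was not analysed here, and 17 entries were tested, as MYH1 and MYH2 are joined. At 3 d 12 were lower, and 14 were lower on both later days, or 12 and 13 after rescaling. Medians were −1.43, −1.80 and −1.58, and by limma none of the 17 was called higher on any of these days. Their summed level was 5900, 8660 and 4514 FPKM at 0 d, 4876, 3175 and 3523 at 3 d, 2358, 1867 and 1758 at 6 d, then 1922, 1570 and 1651 at 9 d. The titin entry (TTN, joined with an unnamed locus) was the most abundant, at a mean of 2791 FPKM. Without it the sums were 1346, 1390 and 1386 at 0 d, 346, 398 and 367 at 3 d, 510, 487 and 540 at 6 d, then 508, 486 and 514 at 9 d, lowest at 3 d. PRDM16 was also lowest at 3 d, whereas MYOD1 was lower still at 6 d and 9 d. MYOD1, the factor that defines muscle precursors, stood at 240, 260 and 303 FPKM at 0 d, 107, 113 and 108 at 3 d, 51.9, 34.0 and 57.3 at 6 d, then 56.6, 43.2 and 63.8 at 9 d, and none of the muscle genes with an entry, tested or not, was at 0 in all libraries. At 3 d CKM fell by 5.39 and MYH7, the slow myosin, by 4.47 on the log2 scale. In bulk RNA fewer cells of a type and less RNA per cell cannot be told apart. The part of muscle cells in the levels of PRDM16, CIDEA and the calcium genes was not tested.

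Blood and endothelial markers were read in the same way. Of 12 blood and immune markers, 5 were tested, of which 4 went up at 3 d, 2 at 6 d and 3 at 9 d, and none went down, with medians of 1.71, 0.85 and 1.59. PTPRC, ITGAM and HBB, which define leukocytes and red cells, were listed at 0 in all 12 libraries. The summed level was 2.68, 1.97 and 1.71 FPKM at 0 d, 209, 120 and 90.9 at 3 d, 30.7, 29.8 and 18.5 at 6 d, then 8.46, 6.71 and 6.33 at 9 d. It was highest at 3 d, as EBF2 and PPARGC1A were, and at 3 d nearly all of it was CD163, a scavenger receptor of macrophages. Its level was 204, 114 and 85.2 FPKM at 3 d, against 0.59, 0.79 and 0.57 at 0 d. Without it the sums were 2.09, 1.18 and 1.14 FPKM at 0 d, 5.15, 5.94 and 5.79 at 3 d, 2.44, 3.40 and 5.56 at 6 d, then 4.49, 3.99 and 3.35 at 9 d. CD14, a marker of monocytes, rose by 1.71 on the log2 scale at 3 d, and CSF1R, of macrophages, by 1.23. CD79A, of B cells, rose by 3.34 (SE 0.86), from 0.73, 0 and 0 FPKM at 0 d to 1.67, 2.17 and 2.05 at 3 d. CD3E, LYZ and AIF1 did not pass 0.08 FPKM in any library. The part of these genes or their cells in the 3 d levels was not tested. Of 8 endothelial markers, 3 were tested, and against 0 d 1 of them was called by limma, lower at 6 d, with medians of 0.27, −0.15 and −0.54. VWF, the most abundant of these, had a mean of 2.06 FPKM.

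Few circular RNA reads came from these genes. The table of 14070 circRNAs held 6 from these 8 genes, 3 from EBF2 and 3 from PPARGC1A, with 9 back-splice reads in all over 12 libraries. All 5 reads of the EBF2 circRNAs came from the 3 d libraries, and the 4 reads of the PPARGC1A circRNAs from libraries of 6 d and 9 d. Totals were 5358 to 10729 reads per library, and the median circRNA had 2 reads, and no test between days was made. The labels describe isolation of poly(A) RNA, which circRNAs lack, whereas the methods describe depletion of rRNA.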

How the data were processed

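The mRNA values are FPKM as deposited; the authors trimmed reads and mapped them to the bovine genome (ARS-UCD1.2 by their methods; the labels name mm8), and the submitters' processing notes list HISAT2 2.0, StringTie 1.3.0 and Bowtie 0.12.2. miRNA signal was deposited as reads scaled by 1 factor per library by the authors, and circRNA values are the authors' counts of back-splice reads. The lncRNA table and 36 further per-sample columns were not used. Libraries were grouped by labelled day. log2(FPKM + 0.1) of the 15402 mRNAs with a mean of at least 0.1 was fitted with limma 3.58.1 (R 4.3.3; eBayes with trend, 1 mean per day, 12 libraries), in place of a count test, which FPKM do not allow; the fit was tested on simulated data. Alternatives were other pseudocounts, filters and scaling, a replicate block, robust estimation, 6 libraries only and libraries left out. The genes and the 17 lists were chosen with earlier results of these data known. Of each list, up to 4 genes with the largest called change against 0 d and a mean of 1 FPKM on any day were named, and 13 genes, with UCP1 and COX8B among them, always; others are named for their level or role, and 3 genes are not reported here. For each tested gene the 3 mRNAs of highest Pearson r were named. Names and neighbours came from RefSeq (ARS-UCD2.0).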

Additional observations from a re-analysis of the deposited data

How the results depend on the processing

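For the 6 tested genes in 5 comparisons, 606 of 625 alternative values kept their direction and side of the threshold, 6 lost a call, 6 gained one and 7 reversed, and the cause was not tested. Those reversed were never called: PPARGC1B at −0.60 (3 d against 0 d, without the third library of 0 d; range to 0.84 over libraries left out), 0.37 (6 d against 0 d, without the first of 0 d; range from −1.07), 0.35 (9 d against 0 d, without the second of 9 d; range from −1.47) and 0.60 (9 d against 6 d, without the second of 9 d; range from −0.93); and PPARGC1A at 9 d against 0 d, at 0.14 rescaled, 0.03 without the first of 0 d and 0.05 without the first of 9 d (range from −0.13).

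With a pseudocount of 1, 2184 mRNAs were called at 3 d, 967 at 6 d and 888 at 9 d against 0 d, 1688 from 3 d to 6 d and 368 from 6 d to 9 d (3585, 1749, 1675, 2939 and 683 as reported). With that pseudocount the genes called fell to 2 at 3 d and 0 at 6 d against 0 d, and to 1 from 3 d to 6 d. Rescaling also left 2 genes called at 3 d against 0 d. With a mean of at least 1 FPKM, 1114 mRNAs were called at 9 d, and 1 of 5 genes from 3 d to 6 d, as PPARGC1A was not tested. A pseudocount of 0.01 called 2 genes at 9 d. Leaving out 1 library called 1 to 3 genes at 9 d against 0 d and 0 to 1 from 6 d to 9 d.

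Correlations of same-numbered libraries' deviations lay between −0.10 and 0.11 over 18 pairs, 2 of them over 0.1. All pairs of number 3 were positive, from 0.03 to 0.11. Of 12 libraries, 5 correlated best with their own replicate number, and whether the numbers pair the libraries was not tested further. With the number as a block, 3591, 1746, 1683, 2933 and 657 mRNAs were called and 3, 1, 1, 2 and 0 of the 6 genes. FPKM carry no read numbers, so how depth limits the low genes is unknown.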
